A study of Mus musculus with 2 samples.

Results

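Within the immune cells of B16 melanoma tumors, the macrophages described here were those in which Gpnmb, Gdf15, Cd36, Arg1, Ppbp and Ctsk together gave at least 3 unique molecular identifiers (UMIs, each standing for 1 captured transcript) and more UMIs than any of 3 competing gene groups. The competing groups were Ccl8, Stab1, Selenop, Cbr2, Gas6 and Ms4a7, then Ero1l, Egln3, Vegfa, Hilpda and Ndrg1, and last Il1a, Il1b, Ptgs2, Cxcl3 and Clec4e. A chosen cell also held at least 1 UMI of Lyz2, none of Cd3d, Cd3e or Cd3g, and at most 2 of Retnla, Ear2 and Lyz1 together. The rule chose 487 of 10801 kept barcodes, 225 of 5225 in the control library and 262 of 5576 in the other. Exchanging the gene groups in the same rule gave 3 further macrophage sets for comparison, called Ccl8/Stab1 (393 and 884 cells), Ero1l/Vegfa (163 and 84 cells) and Il1a/Ptgs2 (872 and 188 cells).

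The study compared B16 tumor cells carrying a short hairpin RNA against Sdc1 (shSdc1), the gene of the cell-surface heparan sulfate proteoglycan syndecan-1, with tumor cells carrying a control hairpin (shRFP). B16 is a mouse melanoma line. All mice were wild type and had been vaccinated under the skin of the left flank with irradiated B16 cells that secrete GM-CSF, and 12 days later received the hairpin-carrying cells on the right flank. The tumors grew for 16 days, 6 of them per group were combined and digested, and living CD45+ cells were sorted and run as 1 10x Genomics 3' library per group. The hairpin acted in the tumor cells and not in the mice, although the genotype label of the second group reads as a knockout. Because each group was 1 library of pooled tumors, no value below has a replicate check and no p-value is given. Intervals are 95% intervals for counting error only, since mice, tumors and library preparation were not replicated. Sdc1 itself gave 7 UMIs in the chosen cells of shRFP and 12 in those of shSdc1, which does not bear on the hairpin because tumor cells had been sorted away.

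Gpnmb encodes a membrane glycoprotein of lysosomes and melanosomes that macrophages make when their lysosomes are loaded, and Gdf15 encodes a secreted stress cytokine of the TGF-beta superfamily. Cd36 is a scavenger receptor for oxidized lipoproteins and long-chain fatty acids, and Ctsk is a lysosomal cysteine protease best known from osteoclasts. Arg1 splits arginine into ornithine and urea, and is a common mark of macrophages in tumors and of alternative activation. Ppbp is a chemokine abundant in platelets. Macrophages with such genes are often described as lipid-laden or foam-like cells, which clear debris and handle cholesterol and heme.

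The start regions of genes that mark these cells are shown because the rule joins genes that need not share control elements. RefSeq start regions on GRCm38.p6, 250 bases before to 50 bases after a start site, were given for 9 of the 12 genes looked for (the 6 genes of the rule and F7, Fabp4, Mmp13, Gclm, Ctsl and Hmox1). They were searched on both strands for the E-box CACGTG, the AP-1 site TGANTCA, the composite ATF4 and C/EBP site TGATGNAA and the antioxidant response core TGACNNNGC, motifs chosen after the expression values were known. The AP-1 letters began at position 8 from the Gpnmb start and at -35 from that of Mmp13. The E-box lay at -83 from the nearer of the listed Gdf15 starts and at -236 from that of Ctsl, which also held the ATF4 and C/EBP letters at -153. The Ppbp region held the AP-1 letters at -204 and the Gclm region the antioxidant core at -134. Of the 10 start regions searched, 3 held the AP-1 letters, 2 the E-box, 1 the ATF4 and C/EBP letters and 1 the antioxidant core. Of 32851 RefSeq start regions of this length, 7.15% held the E-box, 7.81% the AP-1 letters, 3.97% the ATF4 and C/EBP letters and 12.4% the antioxidant core, so these matches describe letters and not sites in use. The sequences are given 5′ to 3′ in the direction of the gene up to 20 bases after the start, with matches in capitals.
Gpnmb (chr6:49036268-49036537, plus strand): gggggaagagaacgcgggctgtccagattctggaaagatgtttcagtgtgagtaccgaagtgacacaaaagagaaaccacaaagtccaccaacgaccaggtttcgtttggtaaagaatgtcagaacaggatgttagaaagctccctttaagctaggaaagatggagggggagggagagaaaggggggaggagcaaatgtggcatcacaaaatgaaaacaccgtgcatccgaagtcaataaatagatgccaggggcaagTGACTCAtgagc
Mmp13 (chr9:7272264-7272533, plus strand): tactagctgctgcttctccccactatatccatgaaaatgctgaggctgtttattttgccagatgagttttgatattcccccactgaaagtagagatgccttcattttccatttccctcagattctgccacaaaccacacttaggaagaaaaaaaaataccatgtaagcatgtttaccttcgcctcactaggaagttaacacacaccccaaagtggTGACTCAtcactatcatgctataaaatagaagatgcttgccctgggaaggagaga
Gdf15 (chr8:70632076-70632345, minus strand): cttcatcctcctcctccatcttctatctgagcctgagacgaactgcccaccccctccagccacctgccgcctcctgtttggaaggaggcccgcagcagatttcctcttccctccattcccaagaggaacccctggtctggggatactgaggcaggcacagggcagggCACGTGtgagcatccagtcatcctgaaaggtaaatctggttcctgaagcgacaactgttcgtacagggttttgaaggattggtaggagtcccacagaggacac
Ctsl (chr13:64370501-64370770, minus strand): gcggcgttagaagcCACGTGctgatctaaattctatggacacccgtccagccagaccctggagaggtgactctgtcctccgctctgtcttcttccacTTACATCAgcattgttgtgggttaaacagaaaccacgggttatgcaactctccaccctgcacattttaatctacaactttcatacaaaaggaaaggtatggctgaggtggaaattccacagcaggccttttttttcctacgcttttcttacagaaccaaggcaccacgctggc

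Macrophage identity was checked with markers outside the rule. Of the chosen cells, 96.0% in shRFP and 98.1% in shSdc1 held a UMI of at least 1 of 12 macrophage markers such as Csf1r, Cd68 and C1qa, and the list summed to 10804 and 12142 counts scaled to 1e6 UMIs of the chosen cells (CPM), with no marker at 0. Markers of T cells, of which the rule bars the Cd3 genes, gave 3 UMIs in each library, NK cell markers 1 and 2, conventional dendritic cell markers 5 and 12, neutrophil markers 5 and 15, and mast cell and red cell markers none. Of 8 platelet and megakaryocyte markers, 7 were at 0 in shRFP and 6 in shSdc1, among them Gp9, Gp1bb and Treml1 in both, and Pf4, a chemokine gene that macrophages also use, gave 532 and 683 of the 532 and 684 UMIs of that list. The osteoclast markers Calcr, Oscar and Itgb3 were at 0 in both libraries. All 9 osteoclast markers together gave 40 and 63 UMIs, in 31 and 39 cells, of which Atp6v0d2 gave 17 and 29. Monocyte markers were seen in 55.1% and 44.3% of the chosen cells. Plasmacytoid dendritic cell markers, a list that holds the widely expressed Bst2 and Tcf4, gave 122 and 188 UMIs, in 34.7% and 42.0% of cells. Macrophage markers were thus the most abundant of these lists, beside monocyte markers in many cells. In shSdc1, 1 chosen cell held 940 of the 1248 UMIs of B and plasma cell markers and Igkc, 29.9% of its own 3146 UMIs. Another held 73 of the 78 melanoma-marker UMIs.

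The chosen cells had a median of 971 UMIs in shRFP (range 275 to 3360) and 864 in shSdc1 (265 to 4932), against medians of 662 and 601 over all kept barcodes. Their UMIs summed to 241772 and 270224, and mitochondrial genes took a median of 1.76% and 1.07%. The libraries held 4255928 and 4370725 UMIs in all and shared 17 kept barcode sequences, of which 0 and 1 were chosen cells. Of the chosen cells, 7 and 10 (3.11% and 3.82%) ranked among the highest doublet scores, a group of 218 of 5225 and 249 of 5576 kept barcodes. The scoring had not worked at its automatic threshold, as described below.

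The share of these cells was similar in both libraries, while the other macrophage sets were not. They made up 4.31% of kept barcodes in shRFP (exact Clopper-Pearson interval 3.77% to 4.89%) and 4.70% in shSdc1 (4.16% to 5.29%), a ratio of 1.09 (0.910 to 1.31). Over 8 alternatives this ratio ran from 0.945, with at least 500 genes per barcode, to 1.24, with a sum of at least 5. It was 1.22 where the rule was applied to barcodes thinned at random to 500 UMIs. Against the ratio of 1.09, Ccl8/Stab1 cells stood at 2.11 (1.87 to 2.38), Ero1l/Vegfa cells at 0.483 (0.367 to 0.632) and Il1a/Ptgs2 cells at 0.202 (0.172 to 0.237). Of the 4 sets together, which held 1653 and 1418 cells, the chosen cells took 13.6% in shRFP and 18.5% in shSdc1. That ratio was 1.36 (1.13 to 1.63), and 1.12 among barcodes with at least 500 genes. These ratios move with the size of the other sets, and the rule's own genes differed between libraries as given next.

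The genes of the rule chose the cells, so their levels are a description. Arg1 led in abundance, with 737 UMIs in shRFP and 794 in shSdc1 (3048 and 2938 CPM), and it was detected in 64.4% and 69.1% of cells. Cd36 followed with 338 and 419 UMIs, in 57.3% and 63.7% of cells. Gdf15 gave 191 and 298 UMIs and Gpnmb 132 and 189, each in about the same share of cells (26.2% and 32.4% for Gdf15, 27.6% and 32.1% for Gpnmb). Ppbp and Ctsk were rare. Ppbp gave 84 and 21 UMIs in 19 and 7 cells, and 1 cell held 27.4% of them in shRFP and 42.9% in shSdc1. Ctsk gave 11 and 52 UMIs in 10 and 35 cells.

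Between the libraries the 6 genes did not move together. Arg1 stood at a ratio of CPM, shSdc1 over shRFP, of 0.964 (0.871 to 1.07) and Cd36 at 1.11 (0.959 to 1.28). Gpnmb was at 1.28 (1.02 to 1.61) and Gdf15 at 1.40 (1.16 to 1.68), Ctsk at 4.23 (2.18 to 8.99) and Ppbp at 0.224 (0.132 to 0.364). Thus, within cells chosen on the sum of these genes, Arg1 was level between the libraries while Ctsk was higher and Ppbp lower in shSdc1. The rule sets a minimum for that sum, to which Arg1 gave the most UMIs. These ratios therefore describe the chosen cells and do not measure a difference between the groups.

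With every cell thinned to 500 UMIs, which left out 23 and 49 shallower chosen cells, Arg1 was seen in 56.4% and 55.4% of chosen cells. The other sets reached at most 26.6% for Arg1, in Il1a/Ptgs2 cells of shSdc1, and as little as 5.56% in Ccl8/Stab1 cells of shRFP. Unthinned, T cells with at least 2 Cd3 UMIs and no Lyz2 held Arg1 in 0.256% and 0.501% of cells and Gdf15 in 0.512% and 0.376%, at median depths of 502 and 560.5 UMIs. Since these T cells were required to lack Lyz2, their shares do not measure the stray myeloid RNA in the chosen cells.

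**Figure D1:**
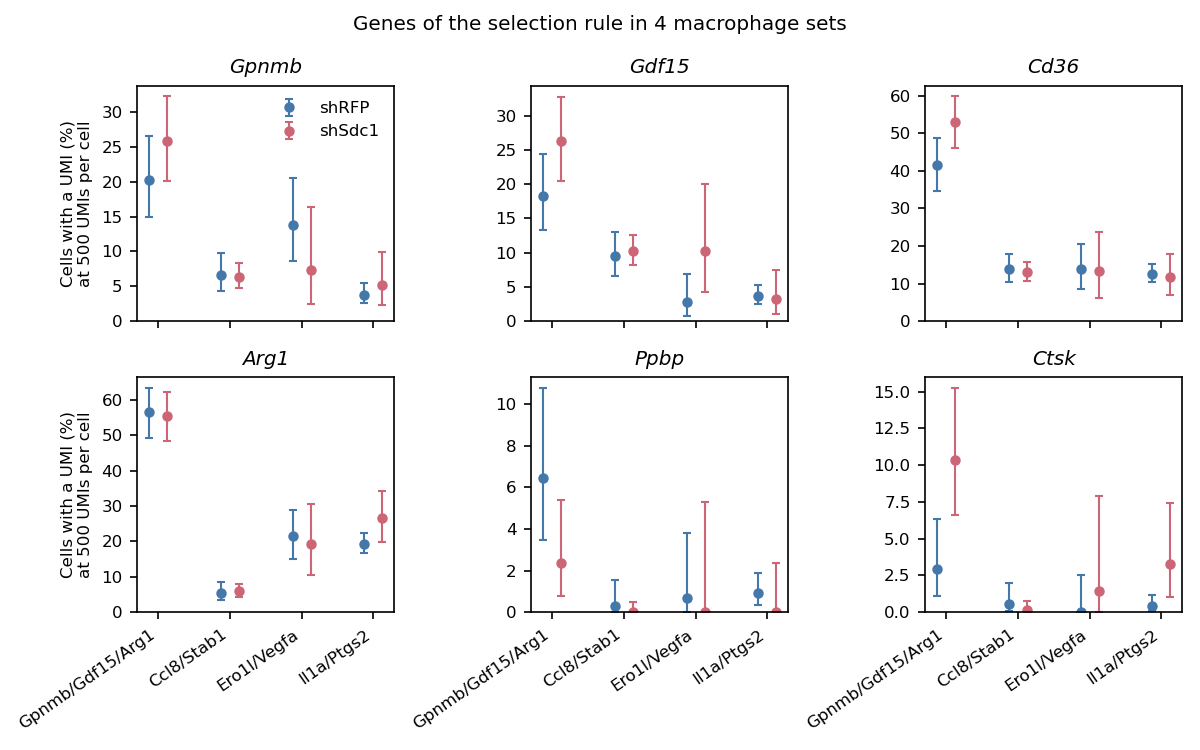
Share of cells with a UMI (y axis, percent, every cell thinned to 500 UMIs) for each gene of the rule in the chosen cells and the 3 other macrophage sets (x axis), in shRFP (blue) and shSdc1 (red); bars are exact 95% binomial intervals for counting error. Arg1 and Cd36 are seen in the largest shares of the chosen cells, and Ctsk and Ppbp in the smallest; all 6 genes entered the rule, so the figure is a description.

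The rule joins cells that hold different genes of the set. Of the chosen cells, 37.3% in shRFP and 24.4% in shSdc1 held UMIs of only 1 of the 6 genes, and none held all 6. Arg1 had the most UMIs of the 6 in 108 and 123 cells, Cd36 in 47 and 47, Gdf15 in 34 and 41, and Gpnmb in 15 and 23. Arg1 and Gdf15 were found together in 15 chosen cells of shRFP and 32 of shSdc1, where the product of their shares gives 38.0 and 58.7. A minimum on the sum itself lowers such overlaps, so pairs were also counted, as a choice made after seeing the data, over all 2964 and 2369 barcodes that passed the Lyz2, Cd3 and Retnla conditions. There Arg1 and Gdf15 met in 37 and 59 barcodes against products of 49.3 and 57.2. Arg1 and Cd36 met in 185 and 187 against 104 and 102, and Gpnmb and Ctsk in 14 and 19 against 2.11 and 6.81. Barcodes of greater depth raise all such overlaps, so the pairs were also counted with each barcode thinned to 500 UMIs. Arg1 and Gdf15 then met in 12 and 23 barcodes against products of 21.4 and 26.4. Arg1 and Cd36 met in 92 and 93 against 48.9 and 44.0, and Gpnmb and Ctsk in 4 and 12 against 0.714 and 2.61. Arg1 with Cd36 and Gpnmb with Ctsk were thus found together above these products in both libraries, thinned or not. Arg1 with Gdf15 lay below the product in shRFP. In shSdc1 this pair was close to the product unthinned and at 0.873 of it when thinned.

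The threshold left 50 barcodes of shRFP and 38 of shSdc1 just outside, with a sum of 2, and 51 and 49 just inside, with a sum of 3. Ctsl, a lysosomal cysteine protease, stood at 812 and 1075 CPM just outside and at 1844 and 1564 CPM just inside. Hmox1, which degrades heme, stood at 2238 and 2671 CPM outside and at 3355 and 2161 CPM inside.

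Cells led by Arg1 and cells led by Gdf15 differed in genes outside the rule. A gene counted as measured with at least 50 UMIs in Arg1-led and Gdf15-led cells together. Of 918 such genes, 37 (4.03%) were at least 2-fold higher in Arg1-led cells in both libraries and 8 (0.871%) at least 2-fold lower. Arg1-led cells held 104237 and 102104 UMIs and Gdf15-led cells 40853 and 57320, so genes high in Arg1-led cells passed the minimum more readily. The counts of higher and lower genes are therefore not comparable. This comparison was added after the data were seen, as were the genes named from it. Fn1, which encodes fibronectin, gave 1813 CPM in Arg1-led and 245 CPM in Gdf15-led cells of shRFP, while shSdc1 had 862 and 34.9 CPM. Spp1, which encodes the secreted phosphoprotein osteopontin, was 6.19-fold (4.71 to 8.29) and 3.62-fold (2.78 to 4.76) higher in Arg1-led cells. The proteoglycan core protein gene Srgn was 5.38-fold and 4.84-fold higher and the chemokine gene Ccl6 4.14-fold and 3.66-fold. Plac8 and F13a1, both in the monocyte marker list, were 4.61-fold and 4.31-fold higher in shRFP, and 11.5-fold and 4.49-fold in shSdc1, from at most 5 UMIs in the Gdf15-led cells. Ly6c2, on the same list, gave 9 and 0 UMIs in Arg1-led and Gdf15-led cells of shRFP, and in shSdc1 stood lower in Arg1-led cells, at 157 against 192 CPM. C1qa, a chain of complement C1q, went the other way, at ratios of 0.381 (0.298 to 0.486) and 0.543 (0.445 to 0.661). Adgre1, which encodes the macrophage surface protein F4/80, stood at 0.305 and 0.539. Neither C1qa nor Adgre1 was among the 8 lower genes, since both were within 2-fold in shSdc1. Those counted as lower included Cnbp, Glmp, Hmgb2, Cd81, Zfand5 and Clec12a. The macrophage marker Mrc1 had no single direction, at 1.59 in shRFP and 0.780 in shSdc1. Gpnmb-led cells were few and carried more Apoe than cells led by Arg1, Cd36 or Gdf15, with 13939.8 CPM in shRFP against 11707 CPM for shSdc1. These values rest on 213 and 318 UMIs in 15 and 23 cells. Of the Apoe UMIs of all chosen cells, 1 cell held 12.4% in shRFP and 1 held 4.12% in shSdc1. Fabp5, a fatty acid binding protein, stood at 6086 and 4418 CPM in Gpnmb-led cells. That was above the 832 to 2974 CPM of cells led by Arg1, Cd36 or Gdf15.

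**Figure D2:**
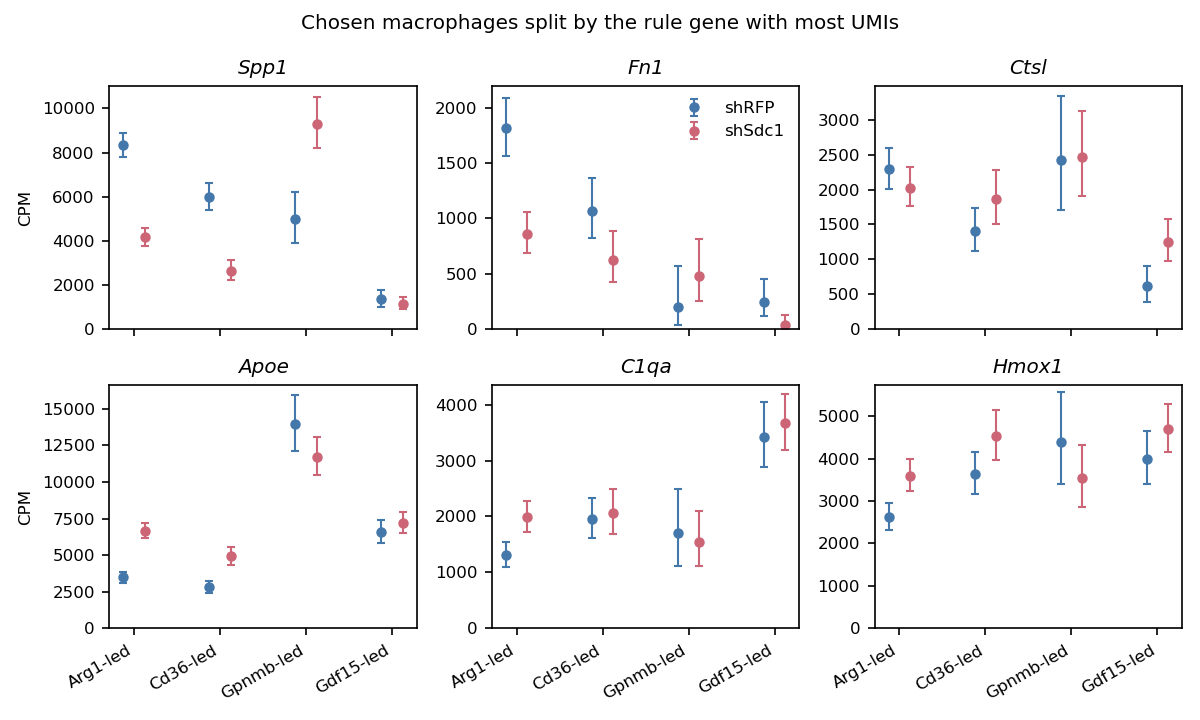
CPM (y axis) of 6 genes outside the rule in chosen cells grouped by the rule gene with the most UMIs (x axis), in shRFP (blue) and shSdc1 (red); bars are exact 95% Poisson intervals for counting error. Spp1 and Fn1 are low and C1qa high in Gdf15-led cells of both libraries, and Apoe is highest in Gpnmb-led cells among the 4 groups drawn.

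Beside the other 3 macrophage sets pooled, the chosen cells held more Ctsl, Fabp4, Gclm, F7 and Mmp13 and less Fcrls and Ms4a6b in both libraries. Genes with at least 50 UMIs in the chosen cells counted as measured. Of 1542 such genes outside all rules, 5 (0.324%) were at least 2-fold higher in both libraries and 2 (0.13%) at least 2-fold lower. Since the minimum was set on the chosen cells alone, genes low in them dropped out more readily. The counts of higher and lower genes are therefore not comparable. The pool was mostly Il1a/Ptgs2 cells in shRFP and Ccl8/Stab1 cells in shSdc1, so the range over the 3 sets is given as well. Ctsl stood at 1783 and 1836 CPM in the chosen cells against 826 and 708 CPM in the pool, and was above each single set by 1.43-fold to 2.75-fold. It was not even among the chosen cells, at 904 and 1539 CPM in those without an Arg1 UMI. Gdf15-led cells held 612 CPM in shRFP, below the pool, and 1256 CPM in shSdc1. Fabp4, a fatty acid binding protein, was 2.57-fold (1.71 to 3.81) and 2.61-fold (1.74 to 3.87) above the pool and 1.76-fold to 4.28-fold above each set. Gclm, the modifier subunit of the first enzyme of glutathione synthesis, was 2.21-fold (1.40 to 3.40) and 2.37-fold (1.66 to 3.37) above the pool and 1.84-fold to 5.17-fold above each set. F7, which encodes coagulation factor VII, was 2.61-fold and 3.89-fold above the pool but only 1.08-fold above Ero1l/Vegfa cells in shSdc1. The collagenase gene Mmp13 was 2.94-fold and 2.43-fold above the pool and stood at 0.746 of the Ero1l/Vegfa level in shSdc1. Chosen cells without an Arg1 UMI held Mmp13 at 42.0 and 90.0 CPM, on 4 and 10 UMIs, against 67.4 and 65.4 CPM in the pool. Fabp4, Gclm, F7 and Ctsl stayed above the pool in such cells of both libraries, F7 on 5 and 6 UMIs. Under the alternatives the smaller ratio of the 2 libraries fell as low as 1.21 for Mmp13 and 1.69 for Gclm. The 2 genes below the pool were Fcrls, a receptor-like gene of resident macrophages (0.484 and 0.477), and Ms4a6b (0.487 and 0.479). Fcrls was above the Il1a/Ptgs2 cells in both libraries, by 3.90-fold and 6.62-fold.

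At a lower bar, 1.5-fold in both libraries and at least 20 UMIs in the chosen cells, 2.01% of 3590 genes were higher in these cells and 1.17% lower. This minimum too was set on the chosen cells alone, so the shares of higher and lower genes are not comparable. Of 10 measured NRF2 and oxidative stress genes 3 were higher. They were Gclm, the metallothionein gene Mt2, and Hmox1, at 3263 and 3897 CPM against 1740.3 and 2089.8 CPM in the pool. Of 12 lipid uptake and foam cell genes outside the rule, Fabp4, Fabp5 and the lipid droplet coat gene Plin2 were higher. Of 13 matrix genes, Spp1, Mmp12, Mmp13 and Ecm1 were higher than the pool. Beside single sets that did not hold for all, since Spp1 was 1.16-fold above both Ero1l/Vegfa and Il1a/Ptgs2 cells in shRFP, and Mmp12 in shSdc1 stood at 0.865 and 0.651 of these sets. Fabp5 and Plin2 were likewise below Ero1l/Vegfa cells in shSdc1, at 0.885 and 0.912. Atp6v0d2, a subunit of the lysosomal proton pump on both the osteoclast and the lysosomal membrane lists, was 5.27-fold (2.57 to 10.7) and 2.51-fold (1.53 to 4.06) above the pool on 17 and 29 UMIs. In the other lysosomal list only Ctsl of 16 hydrolases passed. None of 6 MHC class II genes was higher and 3 were lower, H2-Ab1, H2-DMa and H2-DMb1, with H2-Ab1 at 0.664 and 0.481 of the pool. In shRFP the chosen cells stood above Ccl8/Stab1 cells in this list, at 10026 against 6553 CPM summed, and below the other sets, so the lower level there rests on the Il1a/Ptgs2 cells that fill the pool and on Ero1l/Vegfa cells. In shSdc1 they stood below all 3, at 6291 CPM against 9883 to 28809 CPM. The interferon-induced chemokine genes Cxcl9 (0.610 and 0.296) and Cxcl10 (0.439 and 0.596) were also lower.

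Between the libraries, antigen presentation genes of the chosen cells separated by class. Past 1.5-fold, 4 of 6 measured MHC class II genes were lower in shSdc1 and 5 of 11 MHC class I genes higher. Of the alternative activation genes 7 of 9 were lower and 2 higher, and of the matrix genes 3 of 13 were lower. Of 1563 genes with at least 50 UMIs in the chosen cells, 109 (6.97%) were at least 1.5-fold higher in shSdc1 and 108 (6.91%) at least 1.5-fold lower, 13.9% either way, and the median log2 ratio was -0.01. With 20 UMIs as the minimum, used for gene lists, 13.8% of 3614 genes were higher and 11.4% lower, 25.2% either way, with a median log2 ratio of 0.01.

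In the MHC class II list 0 of 6 measured genes were higher and 4 lower. The list's median log2 ratio was -0.66. Cd74, the invariant chain that accompanies class II molecules, gave 1179 UMIs in shRFP and 814 in shSdc1 (4876.5 and 3012 CPM), a ratio of 0.618 (0.564 to 0.676). The class II chain genes H2-Eb1 and H2-Aa stood at 0.540 (0.456 to 0.639) and 0.645 (0.550 to 0.756), and H2-DMb1, which helps load class II molecules, at 0.537 (0.320 to 0.884). H2-Ab1, at 0.709, and H2-DMa, at 0.801, were below 1 and within 1.5-fold. In the other sets the list's median log2 ratio was above 0, at 0.52 in Ccl8/Stab1 cells, 0.35 in Ero1l/Vegfa cells and 0.75 in Il1a/Ptgs2 cells. H2-Eb1 stood there at 1.81, 1.28 and 1.66 and Cd74 at 1.42, 1.27 and 1.44, all above 1, against values below 1 in the chosen cells. The difference between sets was not tested.

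Of 11 measured genes of MHC class I presentation, 5 were higher in shSdc1 and none lower, and the median log2 ratio was 0.57. B2m, the light chain of class I molecules, gave 516 and 927 UMIs (2134 and 3430.5 CPM), a ratio of 1.61 (1.44 to 1.79), and was detected in 78.7% and 93.1% of cells. The heavy chain gene H2-K1 stood at 1.52 (1.30 to 1.77), and the immunoproteasome subunit gene Psmb10 at 2.32 (1.40 to 3.98) on 22 and 57 UMIs. Tapbp, which tethers class I molecules to the peptide transporter, was at 1.58 (1.05 to 2.41). H2-Q7 was at 2.10 (1.22 to 3.75), which is uncertain because it shares sequence with neighbouring class I genes. B2m was also above 1 in the other 3 sets, at 1.33, 1.35 and 1.30. In chosen cells without an Arg1 UMI it stood at 1.19 (0.997 to 1.43).

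Type I interferon response genes had 5 of 9 measured members higher, none lower, and a median log2 ratio of 0.67. They rested on few UMIs. Irf7, the interferon-induced transcription factor, gave 23 and 47 UMIs (1.83, 1.09 to 3.15) and Oasl1 10 and 29 (2.59, 1.23 to 5.97), while the intervals of Ifit1, Ifit3 and Xaf1 held 1. Isg15, the ubiquitin-like modifier with the most UMIs of the named members, stood at 1.23 (0.880 to 1.71). The list's median log2 ratio was larger in Ccl8/Stab1 cells, at 1.30. Ly6a and Ly6e, surface proteins that interferon induces, were higher in the chosen cells at 2.24 (1.45 to 3.54) and 1.67 (1.33 to 2.11).

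Alternative activation genes had 7 of 9 measured members lower in shSdc1 and 2 higher. Their median log2 ratio was -0.92. The mannose receptor gene Mrc1 gave 120 and 71 UMIs, a ratio of 0.529 (0.389 to 0.716), and Chil3, a chitinase-like protein that monocytes also make, stood at 0.395 (0.218 to 0.693). The lectin gene Mgl2 was at 0.320 (0.138 to 0.678) and the inhibitory receptor gene Cd200r1 at 0.494 (0.250 to 0.939). Ccl24, an eosinophil chemokine, gave 51 and 5 UMIs, a ratio of 0.0877 (0.0273 to 0.218), and 1 cell held 45.1% of the shRFP UMIs. The higher members were the transglutaminase gene Tgm2, at 1.59 (1.08 to 2.35), and Clec10a, at 1.53 (0.762 to 3.21), whose reads can be shared with its close relative Mgl2. Arg1, the best known gene of this program, helped choose the cells, so its near-equal level is not set against this list. In the other sets the list's median log2 ratio was 0.02 in Ccl8/Stab1 cells, 0.60 in Ero1l/Vegfa cells and 0.21 in Il1a/Ptgs2 cells.

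Matrix genes had 3 of 13 members lower and none higher, and the median log2 ratio was -0.48, or -0.04 with every cell weighted alike. Spp1 gave 1515 and 1004 UMIs (6266 and 3715 CPM), a ratio of 0.593 (0.547 to 0.643). Fn1 stood at 0.441 (0.359 to 0.541) and Mmp12, macrophage elastase, at 0.451 (0.373 to 0.544). Spp1 and Fn1 were below 1 in each of the other sets too, at 0.388 to 0.616 for Spp1 and 0.269 to 0.554 for Fn1. Mmp12 was not, at 1.06 in Ccl8/Stab1 cells, 0.601 in Ero1l/Vegfa cells and 1.92 in Il1a/Ptgs2 cells. Monocyte markers, a list that shares Chil3 with alternative activation, had 3 of 7 measured members lower (Chil3, Vcan and F13a1) and Ly6c2 higher. Their summed level was 1299 CPM in shRFP and 862 CPM in shSdc1, and its part in the matrix and activation differences was not tested.

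Genes of redox and lipid handling were among those higher in shSdc1. Gpx1, the main cytosolic glutathione peroxidase, gave 292 and 592 UMIs (1208 and 2191 CPM), a ratio of 1.81 (1.57 to 2.09), while the other sets stood at 1.05, 1.16 and 1.14. Gstm1, a glutathione transferase, was at 2.45 (1.33 to 4.76). Of 10 NRF2 and oxidative stress genes 3 were higher (Gclm, Srxn1 and Mt2) and 1 lower (Slc7a11, the cystine transporter), with a median log2 ratio of 0.28, or -0.01 where the sum had to be 2 times each competing sum. Gclm stood at 1.55 (0.971 to 2.52) on 30 and 52 UMIs, an interval that held 1. Apoe, the lipoprotein that carries cholesterol out of macrophages, gave 1085 and 1918 UMIs (4488 and 7098 CPM), a ratio of 1.58 (1.47 to 1.71), and was above 1 in the other sets as well, at 1.48 to 2.30. Of 9 cholesterol efflux genes 4 were higher, among them Nr1h3, which encodes the nuclear receptor LXR-alpha, on 10 and 21 UMIs, and none was lower. Igf1, insulin-like growth factor 1, was at 1.99 (1.39 to 2.89), and Usf2, a factor that binds E-boxes, at 2.34 (1.33 to 4.27). The LIM-domain gene Crip1 stood at 1.69 (1.45 to 1.98).

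Lists of lysosomal, stress and metabolic genes had few members past 1.5-fold. Of 16 lysosomal hydrolases 1 was higher and none lower, with a median log2 ratio of 0.18, and Ctsl stood at 1.03 (0.903 to 1.17), or at 0.868 in cells with an Arg1 UMI and 1.70 in cells without. Of 10 measured genes of the integrated stress response, the program to which Gdf15 belongs, 1 was higher and 1 lower, with a median of -0.21. Of 17 oxidative phosphorylation genes none passed 1.5-fold either way, with a median of 0.08, and of 18 glycolysis and hypoxia genes 1 was higher, with a median of -0.12. Lipid uptake and foam cell genes had 1 of 12 higher, Apoe, and a median of 0.03. The signs of the oxidative phosphorylation and glycolysis medians turned in cells without Arg1, and that of the lipid median turned under TMM scaling.

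Heat shock genes differed with the same sign as the matrix genes. Hspa1b gave 338 and 86 UMIs, a ratio of 0.228 (0.178 to 0.289), and Hspa1a 330 and 146, a ratio of 0.396 (0.324 to 0.482). These neighbouring copies share reads and cannot be separated well. They belong to the 18 genes that tissue dissociation is known to induce, of which 3 were lower and none higher, with a median log2 ratio of -0.22 (0.04 where the sum had to be 2 times each competing sum) and a summed level of 16772 and 13674 CPM. Both libraries were digested for 15 minutes at 37 °C. The part of handling in these differences was not tested. Other genes lower in shSdc1 were the lectin receptor gene Clec4n at 0.426 (0.307 to 0.585), the stress-responsive Phlda1 at 0.350 (0.216 to 0.554), the signalling protease gene Malt1 at 0.383 (0.235 to 0.611) and the histone demethylase-like gene Jmjd1c at 0.348 (0.173 to 0.661). Jchain, the joining chain of immunoglobulin, gave 0 and 74 UMIs, at least 22.1-fold higher in shSdc1 against a floor of 3 counts, but 94.6% of these UMIs lay in the 1 cell with B and plasma cell genes.

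**Figure D3:**
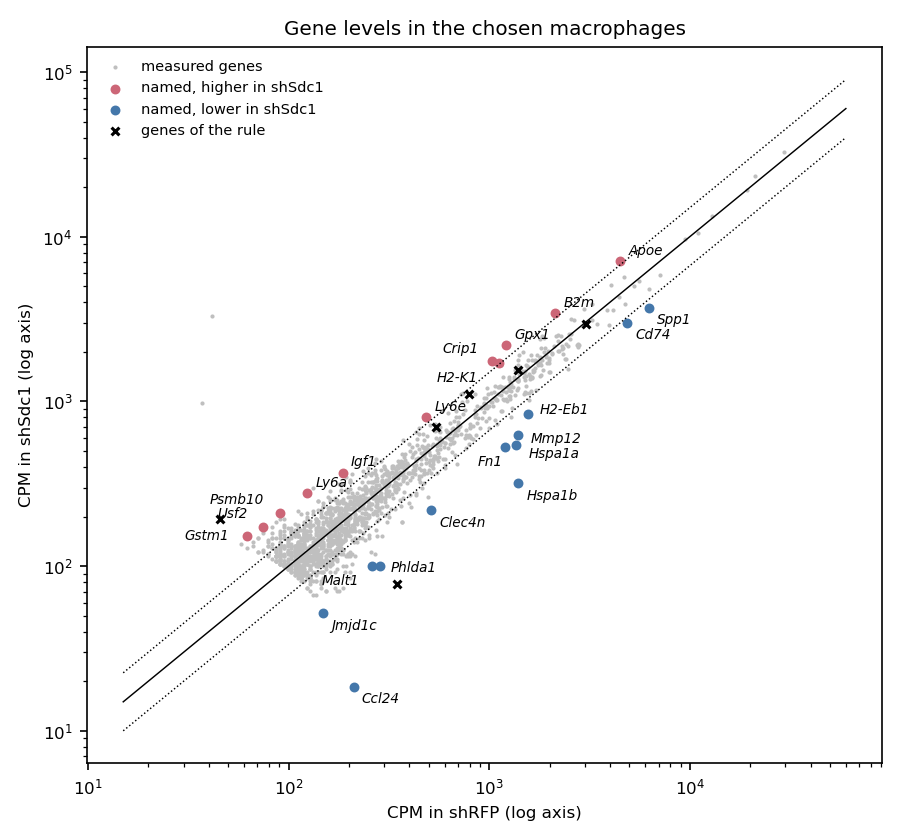
CPM in shRFP (x axis, log) and shSdc1 (y axis, log) summed over the chosen cells, for genes with at least 50 UMIs and a UMI in each library (grey); named genes are red where higher and blue where lower in shSdc1, crosses are genes of the rule, and dotted lines mark 1.5-fold. Apoe and B2m stand above the line, Spp1, Cd74 and Fn1 below it, and the 2 grey points far above it are immunoglobulin genes.

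**Figure D4:**
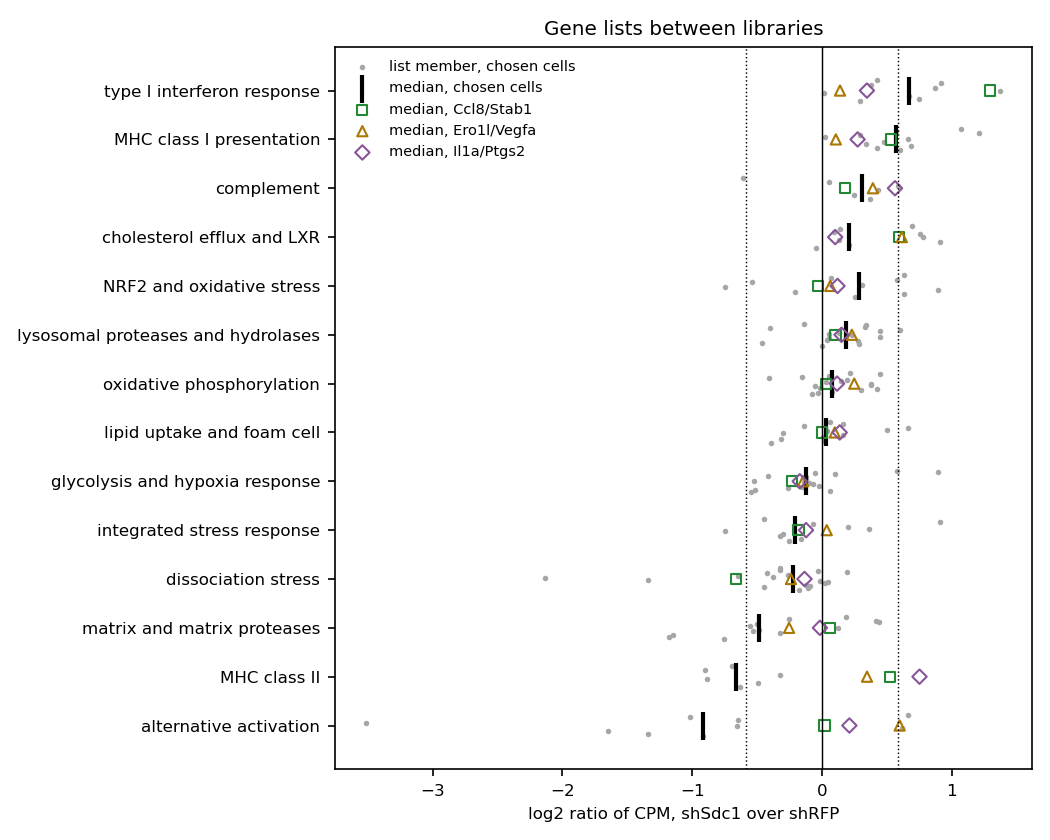
Log2 ratio of CPM, shSdc1 over shRFP (x axis), for members of 14 gene lists (y axis) in the chosen cells (grey points), with the list's median in the chosen cells (black bars) and in the other sets (open symbols); dotted lines mark 1.5-fold. The black bar of MHC class II lies at -0.66, left of 0, and the open symbols of the other 3 sets lie right of it.

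The differences were set beside those of the other macrophage sets. Of the 24 genes named for their difference between libraries, 9 were past 1.5-fold in the same direction in Ccl8/Stab1 cells, 9 in Ero1l/Vegfa cells and 5 in Il1a/Ptgs2 cells. Genes with fewer than 50 UMIs in a set could not be counted there. In Ero1l/Vegfa cells these were Ly6a, Psmb10, Igf1, Usf2, Gstm1, Ccl24, Jmjd1c and Jchain. In Il1a/Ptgs2 cells they were Igf1, Gstm1 and Jchain, and in Ccl8/Stab1 cells Ccl24. The Ccl8/Stab1 count includes Jchain, at 0 and 105 UMIs, of which 1 cell held 88.6%. In Ccl8/Stab1 cells 7.43% of 3917 measured genes were higher and 7.22% lower, in Ero1l/Vegfa cells 5.94% and 10.6% of 707, and in Il1a/Ptgs2 cells 6.79% and 10.6% of 2887. Spp1, Fn1, Apoe, Hspa1a and Hspa1b therefore differed the same way in more than 1 set, whereas Gpx1, Crip1, H2-Eb1 and Cd74 were past 1.5-fold in the chosen cells only or of opposite sign elsewhere. None of these differences between sets was tested.

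**Figure D5:**
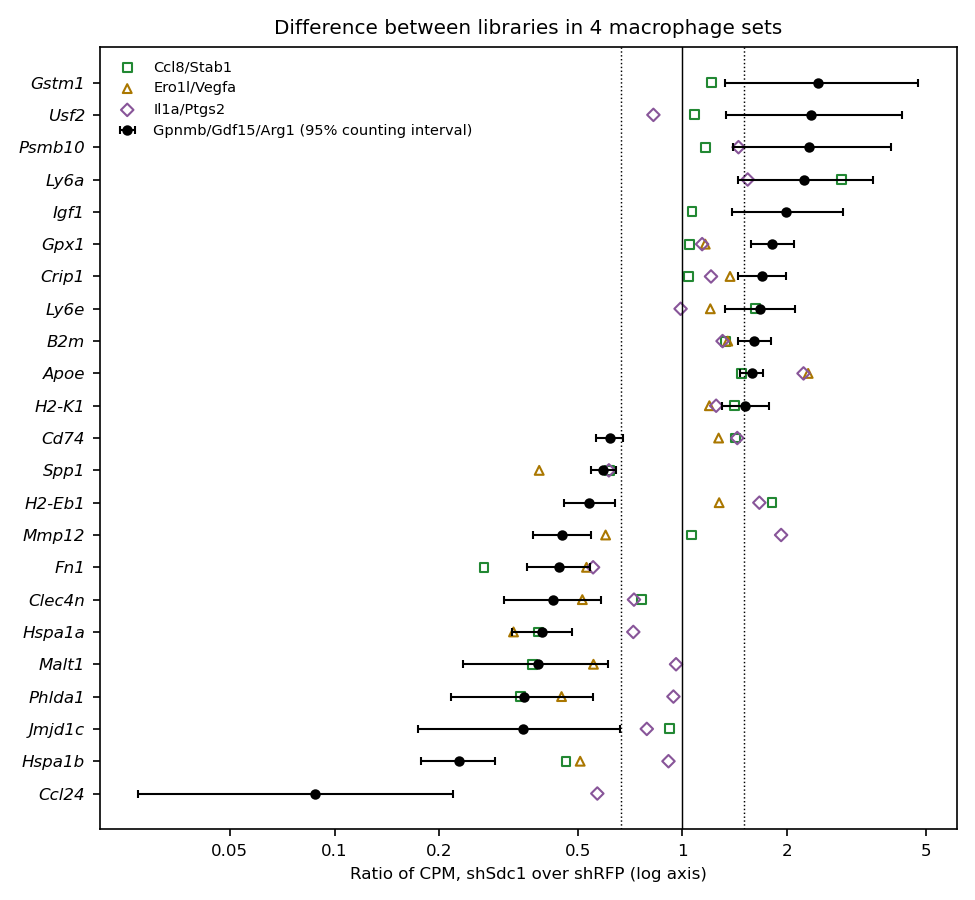
Ratio of CPM, shSdc1 over shRFP (x axis, log), for the named genes with UMIs in both libraries (y axis), in the chosen cells (black, with 95% intervals for counting error) and in the other sets where a gene had at least 50 UMIs (open symbols); dotted lines mark 1.5-fold. H2-Eb1 and Cd74 lie below 1 in the chosen cells and above 1 in the other sets, while Spp1 and Fn1 lie below 1 in all 4.

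The chosen cells with and without an Arg1 UMI were compared as a split added after the data were seen. There were 145 and 181 cells with Arg1 and 80 and 81 without. Spp1 was lower in shSdc1 with Arg1, at 8560 and 4212 CPM and a ratio of 0.492 (0.447 to 0.541), and stood at 2732 and 3005 CPM without it, a ratio of 1.10 (0.933 to 1.30). Gpx1 was at 2.31 (1.94 to 2.77) with Arg1 and 1.08 (0.841 to 1.40) without. Crip1 was at 2.34 (1.92 to 2.86) and 0.856 (0.647 to 1.13), and Ly6e at 2.15 (1.62 to 2.86) and 0.934 (0.607 to 1.44). Ctsl also changed side, at 0.868 (0.744 to 1.01) and 1.70 (1.31 to 2.23), as did Mmp13 (0.691 and 2.14, the latter on 4 and 10 UMIs) and Fabp5 (0.645 and 1.25). Some genes were on the same side of 1 in both groups of cells. Cd74 stood at 0.667 with Arg1 and 0.538 without, H2-Eb1 at 0.629 and 0.400, Fn1 at 0.483 and 0.319, and Mmp12 at 0.548 and 0.319. Of the class I genes, B2m was at 1.91 (1.66 to 2.20) with Arg1 and 1.19 (0.997 to 1.43) without. H2-K1 stood at 1.62 and 1.37, and Psmb10 at 2.51 and 2.10. The type I interferon median was 1.10 on the log2 scale with Arg1, and -0.25 without, where only 3 members were measured. Spp1 also had no single direction by leading gene, since Gpnmb-led cells gave 4974 CPM in shRFP against 9314 CPM for shSdc1. These values rest on 76 and 253 UMIs in 15 and 23 cells. Over all chosen cells, 1 cell held 10.8% of the Spp1 UMIs in shRFP and 1 held 10.1% in shSdc1.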

How the data were processed

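The deposited values were raw UMI counts per gene and barcode, and the file headers name Cell Ranger 6.1.1. The submitters' processing notes name build mm10, and which annotation was used is not stated there. The tables held 31253 features, and features sharing a symbol were summed, giving 31205. Barcodes with at least 200 genes and under 10% mitochondrial UMIs were kept (5225 of 5786 in shRFP, 5576 of 5902 in shSdc1). Scrublet (scanpy 1.11.5) marked 1 and 0 barcodes at its automatic threshold and so had not worked; doublets were kept, and removing the highest scores at 0.8% per 1000 barcodes was an alternative. No clustering was used.

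Counts were summed over the chosen cells of each library and divided by their total (CPM). Ratios carry exact conditional binomial intervals and levels exact Poisson intervals (Python 3.11.15, scipy 1.17.1), and the computation was tested on simulated data. TMM came from edgeR 4.0.16. With 1 library per group nothing was tested. The cells and all 47 gene lists were chosen with earlier results of these data known. Named genes were the genes of the rule, the 12 highest and 12 lowest of those past 1.5-fold with at least 50 UMIs, by the interval bound nearest 1, those at least 2-fold from the other sets in both libraries, and list members; genes of mitochondria, ribosomes and immunoglobulin or T cell receptor segments and unnamed models were left out of the ranked groups. The Arg1 split, the comparison of leading genes, the pair counts and the motifs were chosen after seeing the data.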

Additional observations from a re-analysis of the deposited data

Results flagged for a closer look

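A few ratios between the libraries had opposite signs in the chosen cells and in another macrophage set, past 1.5-fold in both; the differences between sets were not tested, and the set sizes differ between libraries. H2-Eb1 stood at 0.540 in the chosen cells, 1.81 in Ccl8/Stab1 cells and 1.66 in Il1a/Ptgs2 cells. Mmp12 stood at 0.451 in the chosen cells and 1.92 in Il1a/Ptgs2 cells. The MHC class II list had a median log2 ratio of -0.66 in the chosen cells and 0.75 in Il1a/Ptgs2 cells. The alternative activation list stood at -0.92 in the chosen cells and 0.60 in Ero1l/Vegfa cells, which numbered 163 and 84.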

How the results depend on the processing

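No paired analysis was possible because each group was 1 library, and for the same reason no library could be left out. Among the main shares and counts, 115 values under the alternatives stayed near the reported ones and 26 moved. The share among the 4 sets fell to a ratio of 1.12 with at least 500 genes per barcode. The counts of genes past 1.5-fold follow the minimum of UMIs, with 1014 higher and 919 lower at 10 UMIs, 38 and 34 at 100 UMIs, and 40 and 52 with cells thinned to 500 UMIs. There were 69 lower where the sum had to be 2 times each competing sum, 67 lower with Arg1, and 38 higher and 53 lower without Arg1. List members past 1.5-fold, 42 higher and 37 lower over all lists, were 9 and 11 at 100 UMIs, and 18 higher without Arg1. Beside the other sets, 38 genes were higher and 15 lower at 10 UMIs and 1 and 0 at 100 UMIs; 8 were higher with cells weighted alike. The count of lower genes there was 1 with a sum of at least 5, with at least 500 genes or without the highest Scrublet scores, and 0 with thinned cells, with 2 times each competing sum or without cells holding another lineage's marker. Genes shared in direction with Il1a/Ptgs2 cells were 3 with cells weighted alike. Among genes named for their difference between libraries and lists whose median lay past 1.5-fold, the split without Arg1 reversed Crip1 (0.856), Ly6e (0.934), Spp1 (1.10) and the type I interferon median (-0.25); the cause was not tested. Medians within 1.5-fold changed sign under at least 1 alternative for 18 further lists, among them interferon gamma (-0.89 without Arg1) and chemokines (0.14 with cells weighted alike). The log2 scaling factors of the chosen cells were 0.03 for TMM and -0.03 for median-of-ratios scaling, and are subtracted from the log2 ratios. TMM thus lowered these ratios slightly and median-of-ratios scaling raised them slightly.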
